A study of Homo sapiens with 8 samples.

Results

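This report follows 9 classic tumor suppressor genes whose promoters are often hypermethylated in human cancers: GSTP1, RASSF1, MGMT, CDH1, TIMP3, DAPK1, VHL, BRCA1, and FHIT. They were taken by name, as the non-control probes whose RefSeq transcript belongs to one of these genes, and each gene had 1 probe. The set is therefore 9 of 34127 probes, or 9 of the 19483 genes that could be named on the array. The rule that picks their probes uses no measured value, but the set was proposed with earlier results of these data known.

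Cells can silence such genes by methylating the cytosines of CG dinucleotides in the CpG island at the promoter, and the silent state is then inherited through cell division. TET1 is a dioxygenase that oxidizes 5-methylcytosine and so starts its replacement by unmethylated cytosine, and the methyl-CpG-binding domain (MBD) of MBD2 recognizes methylated CG sites. Genes of this kind lose expression in tumors by mutation or by promoter methylation, and the arrays address whether stable expression of a TET1 construct was accompanied by a different transcript level.

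RNA from 8 stable clones of HEK293T, a line derived from human embryonic kidney cells, was measured on 8 single-color Agilent arrays, 1 array per clone. The clones carried empty vector (#1 and #2), the TET1 catalytic domain alone (TET1-CDwt #2 and #5), the same domain joined to the MBD of MBD2 (MBD-TET1-CDwt #3 and #10, the active fusion), or that fusion with a catalytic-dead point mutation (MBD-TET1-CDmut #9 and #10, the inactive fusion). All 8 were picked as single colonies after blasticidin selection and share the pcDNA6/Myc-His plasmid backbone with its constitutive CMV promoter. Each array is thus 1 clone, and p-values rest on the spread between clones of the same construct, pooled over all groups. The pooled spread also includes groups that are not part of a given comparison. In RNA from a whole culture, fewer expressing cells and less RNA per cell cannot be told apart.

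Signals are given as log2 intensity minus the 75th percentile of the array, so that 0 is the 75th percentile of all non-control probes and 1 unit is a 2-fold difference. A probe was called detected when more than 50% of its spots were well above background by the scanner software. On an array, between 63.2% and 68.2% of the probes were detected, and the weakest detected signal lay between -6.01 and -5.51. Empty vector and TET1-CDwt shared slide 1 and both MBD fusions shared slide 2, so that slide and construct cannot be told apart when either fusion is set against empty vector. Each of the 5 HEK293T markers examined had a probe detected on all 8 arrays. A further PAX2 probe was detected on no array and a further KRT8 probe on 5 of 8. Of 8 markers of other cells, 6 were detected on none. The other 2, CDH5 and 1 of the 4 probes of PTPRC, were detected on all 8. As a reference, SOX17, a transcription factor gene, was chosen for its known rise in these lines. It was not detected in empty vector and was at least 75.7-fold higher in the active fusion, which detected it in 2 of 2 clones. SOX17 was tested only because that group detected it. Its limma adjusted p of 0.00307 belongs to the fitted difference, which uses the undetected signals, and not to this bound.

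The promoter sequences show how much CG the genes offer for methylation. RefSeq promoter windows (GRCh38.p14) of 300 bases, 250 before and 50 after a transcript start, were found for 7 of the 9 genes, with 10 windows in all. The motif counted was CG, which reads the same on both strands and cannot overlap itself. The 35116 windows of all genes held a median of 14 CG (quartiles 4 and 28), and 96.0% held at least 1. MGMT held 45 CG, a number reached by 3.48% of all windows, and GSTP1 held 36, reached by 12.7%. DAPK1 held 37 and 33 in its 2 windows, RASSF1 held 33, and TIMP3 held 31. BRCA1 (17 and 13) and FHIT (13 and 0) lay nearer to the median. Not every window lies at the first start site of its gene. The transcript start of the RASSF1 window lies 3386 bases inside the gene, and those of the DAPK1 windows 639 and 1354 bases. For the BRCA1 window with 17 CG the transcript start lies 44963 bases inside, and for the FHIT window with 0 CG 1170543 bases. The 250 bases before the start are printed for the one gene that was detected on no array and for a gene with a CG-rich promoter that was detected on all 8, with every CG in capitals. They are MGMT at chr10:129466991-129467240 (plus strand, 36 CG) and GSTP1 at chr11:67583562-67583811 (plus strand, 28 CG).
MGMT: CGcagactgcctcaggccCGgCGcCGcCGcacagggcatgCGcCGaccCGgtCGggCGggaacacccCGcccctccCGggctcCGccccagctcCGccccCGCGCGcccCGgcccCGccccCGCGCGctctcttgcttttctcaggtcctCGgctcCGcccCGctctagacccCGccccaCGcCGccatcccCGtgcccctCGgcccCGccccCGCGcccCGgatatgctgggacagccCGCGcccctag
GSTP1: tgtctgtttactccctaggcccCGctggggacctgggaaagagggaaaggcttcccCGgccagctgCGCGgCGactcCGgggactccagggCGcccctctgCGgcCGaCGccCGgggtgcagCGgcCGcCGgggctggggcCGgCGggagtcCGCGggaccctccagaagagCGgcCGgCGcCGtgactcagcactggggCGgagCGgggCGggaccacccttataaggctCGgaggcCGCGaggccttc

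**Figure D1:**
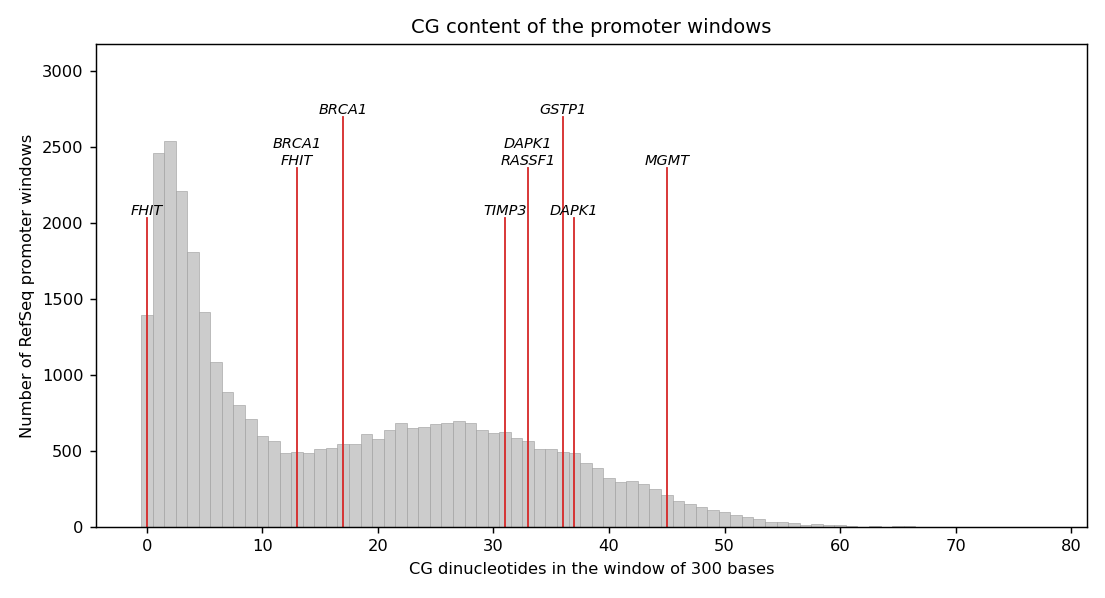
Number of CG dinucleotides in RefSeq promoter windows of 300 bases (x axis) against the number of windows (y axis); the gray bars are all 35116 windows and each red line is a window of a named gene. MGMT lies farthest to the right at 45 CG, and the windows of RASSF1, TIMP3, GSTP1, and DAPK1 hold 31 to 37.

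In these cells most of the 9 genes were already detected without any TET1 construct. In empty vector 8 of the 9 genes were detected on both arrays and only MGMT was detected on neither. Of all probes, 65.8% were detected on empty vector #1 and 68.2% on empty vector #2. CDH1 was near the limit on empty vector #2, with 6 of 10 spots above background. Its log2 signal there was -5.65, where the weakest detected signal was -6.01. The same 8 were detected on both arrays of TET1-CDwt and of MBD-TET1-CDmut, and 7 were detected on both arrays of MBD-TET1-CDwt, where CDH1 was detected on 1. Signals of 8 of the 9 genes were thus above background without a TET1 construct. The same rule detected CDH5 (-3.06 to -2.68) and 1 PTPRC probe (-5.48 to -3.91), markers of other cells, on all 8 arrays. In empty vector, DAPK1 (-4.22 and -4.10) and CDH1 (-4.72 and -5.65) lay below CDH5, and whether their signals come from transcript was not tested. Whether any of the 9 was methylated was not measured on these arrays. The MGMT and GSTP1 windows printed above are both rich in CG, and the genes lay below background and far above it, respectively.

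MGMT encodes the methyltransferase that removes alkyl groups from guanine in DNA, and loss of its expression is known to sensitize tumors to alkylating drugs. Its log2 signal was -7.82 and -8.03 in empty vector, -8.04 and -7.94 in TET1-CDwt, -7.45 and -7.58 in MBD-TET1-CDwt, and -7.19 and -7.58 in MBD-TET1-CDmut. None of the 8 arrays detected it, and its intensity was between 23.3% and 31.7% of the weakest detected signal of the same array. None of the 8 values is a level above background, so neither an order nor a difference between groups is given. Relative to empty vector, the 9137 probes detected nowhere had a median log2 difference of 0.37 for the active fusion, 0.35 for the inactive fusion, and -0.07 for TET1-CDwt. The part of this shift in the MGMT values was not tested, and slide and MBD construct cannot be told apart here. MGMT thus stayed below background in the clones of the active fusion, where SOX17 was detected.

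GSTP1 encodes glutathione S-transferase pi, a detoxifying enzyme whose loss through promoter methylation is a hallmark of prostate cancer. Its probe has 10 spots per array. Its log2 signal was 7.25 and 7.08 in empty vector, 7.36 and 7.31 in TET1-CDwt, 7.31 and 7.43 in MBD-TET1-CDwt, and 7.04 and 7.09 in MBD-TET1-CDmut. The 4 clones with an active catalytic domain lay above the other 4, but narrowly, with nearest values of 7.31 in TET1-CDwt and 7.25 in empty vector. The highest and the lowest array were 0.39 apart. This split was not tested, and the share of all probes that show it was not counted. MBD-TET1-CDwt exceeded MBD-TET1-CDmut by 0.30 ± 0.17 (SE), a fold of 1.23 with a 95% interval from 0.937 to 1.62 (limma adjusted p = 0.786). Against empty vector, the active fusion differed by 0.20 and TET1-CDwt by 0.17 (limma adjusted p = 0.899 and 1.00). The spots of one array varied by an SD of 0.044 to 0.060, and both clones of a group were 0.18 apart in empty vector, 0.05 in TET1-CDwt, 0.12 in the active fusion, and 0.05 in the inactive fusion.

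RASSF1 encodes a Ras-association domain protein that acts through the MST kinases of the Hippo pathway. Its log2 signal was 2.30 and 2.17 in empty vector, 1.97 and 2.28 in TET1-CDwt, 2.61 and 2.08 in MBD-TET1-CDwt, and 2.64 and 2.45 in MBD-TET1-CDmut. The inactive fusion lay above empty vector without overlap, and both clones of the active fusion were 0.53 apart, one near the top and one near the bottom of all arrays. The difference between MBD-TET1-CDmut and empty vector was 0.31 ± 0.23 (limma adjusted p = 1.00). RASSF1 has transcripts from several start sites, and the array names this probe by transcript NM_170713. Which of them it detects was not tested. Neither its detection nor its differences can thus be assigned to 1 start site or to the promoter that tumors methylate. The named genes that followed RASSF1 most closely over the 8 arrays were BLZF1, TFAM, and GRAP (Pearson r = 0.97 each, among 18517 probes compared).

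CDH1 encodes E-cadherin, the adhesion protein of epithelial cells, and it varied most between clones. Its log2 signal was -4.72 and -5.65 in empty vector, -3.85 and -5.42 in TET1-CDwt, -6.23 and -3.87 in MBD-TET1-CDwt, and -4.34 and -4.26 in MBD-TET1-CDmut. It was detected on 7 of 8 arrays and not on MBD-TET1-CDwt #3, which gave the lowest value, while the other clone of that construct gave the second highest. The difference of MBD-TET1-CDwt from empty vector was 0.14 ± 0.82 (fold 1.10, 95% interval from 0.288 to 4.23). Since MBD-TET1-CDwt #3 did not detect CDH1, its value there is only a bound, and with the weakest detected signal of that array in its place the difference was 0.47. It was 1.32 without MBD-TET1-CDwt #3 and at most -0.37 without MBD-TET1-CDwt #10, so that its direction rested on 1 clone. MBD-TET1-CDmut exceeded empty vector without overlap, by 0.88 (limma adjusted p = 1.00), and CDH1 spots of one array varied by an SD of up to 0.70. Over the 8 arrays the named genes whose log2 signal followed CDH1 most closely, among 18517 probes compared, were TOX2 (Pearson r = 0.98), PLCG2 (r = 0.98), and GJB2 (r = 0.97). TOX2 (1.36), PLCG2 (-1.18), and GJB2 (-4.20), the last a gap junction protein, were all lowest on MBD-TET1-CDwt #3. That is the array that did not detect CDH1 and gave its lowest value. Since the 3 genes were picked for following CDH1, their low there follows largely from the choice and adds no support. Of the tumor suppressor genes, FHIT had the highest r with CDH1, 0.82, a value looked up after the levels were seen. The others had 0.56 (DAPK1), 0.54 (TIMP3), 0.14 (GSTP1), -0.41 (RASSF1), -0.61 (BRCA1), and -0.63 (VHL). All these correlations describe 8 arrays that share 2 slides, and those of TOX2, PLCG2, and GJB2 were chosen as the highest among many probes.

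TIMP3, a secreted inhibitor of matrix metalloproteinases, gave log2 signals of -0.57 and -0.58 in empty vector, -0.17 and -1.03 in TET1-CDwt, -0.57 and -0.07 in MBD-TET1-CDwt, and -0.76 and -0.63 in MBD-TET1-CDmut. The active fusion lay above the inactive fusion without overlap, by 0.37 ± 0.31 (fold 1.29, 95% interval from 0.778 to 2.15, limma adjusted p = 0.871). Both TET1-CDwt clones enclosed all empty vector and MBD-TET1-CDmut values.

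DAPK1, a calcium/calmodulin-regulated kinase that promotes cell death, gave log2 signals of -4.22 and -4.10 in empty vector, -3.66 and -4.36 in TET1-CDwt, -4.24 and -3.88 in MBD-TET1-CDwt, and -3.91 and -4.40 in MBD-TET1-CDmut. All groups overlapped empty vector. The active fusion differed from empty vector by 0.10 ± 0.30 (limma adjusted p = 0.971).

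VHL is the substrate-recognition subunit of the ubiquitin ligase that marks hypoxia-inducible factors for degradation. Its log2 signal was 5.06 and 5.84 in empty vector, 5.07 and 5.15 in TET1-CDwt, 5.52 and 5.24 in MBD-TET1-CDwt, and 5.14 and 5.32 in MBD-TET1-CDmut. The highest and the lowest array were both empty vector, and the 6 construct clones lay between them. The difference of TET1-CDwt from empty vector was -0.34 ± 0.28 (limma adjusted p = 1.00). It was 0.05 without empty vector #2 and -0.73 without empty vector #1 (limma unadjusted p = 0.0245, adjusted p = 0.606).

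BRCA1, a DNA repair protein of homologous recombination, has a probe with 10 spots per array and gave log2 signals of 1.60 and 1.66 in empty vector, 1.61 and 1.81 in TET1-CDwt, 1.71 and 1.40 in MBD-TET1-CDwt, and 1.70 and 1.66 in MBD-TET1-CDmut. Its 8 arrays lay within 0.41 of each other and every group overlapped empty vector. The difference of MBD-TET1-CDwt from empty vector was -0.08 ± 0.18 (95% interval of the fold from 0.70 to 1.29).

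FHIT encodes a diadenosine triphosphate hydrolase and lies across a common chromosomal fragile site. Its log2 signal was -1.98 and -2.12 in empty vector, -1.73 and -2.60 in TET1-CDwt, -2.45 and -1.66 in MBD-TET1-CDwt, and -2.15 and -1.62 in MBD-TET1-CDmut. The clones of each construct group spread more widely than the empty vector clones and enclosed both of them. The mean of MBD-TET1-CDwt differed from that of empty vector by -0.0041 ± 0.38.

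**Figure D2:**
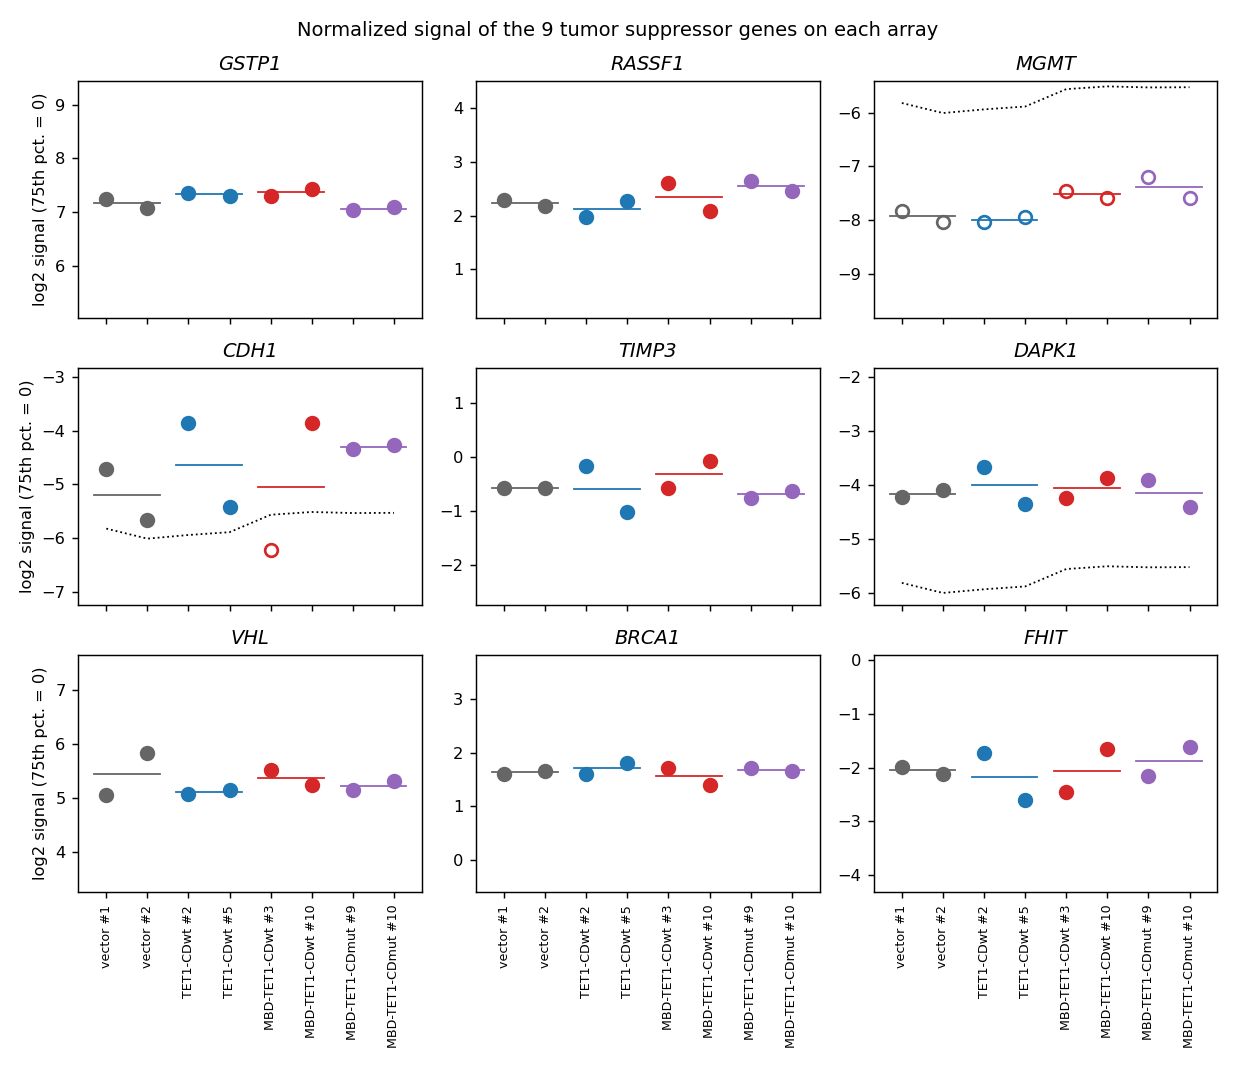
Log2 signal relative to the 75th percentile of the array (y axis, same span in each panel) for each of the 8 arrays (x axis); colors are the 4 groups, horizontal lines their means, filled points detected and open points not detected signals, and the dotted line, where it falls within a panel, is the weakest detected signal of the array. MGMT is open on all 8 arrays and CDH1 on MBD-TET1-CDwt #3, while GSTP1 and BRCA1 span 0.39 and 0.41.

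Setting the active fusion against empty vector asks whether it raised these genes. None of the 8 tested genes was called by limma at an adjusted p under 0.05, where 0.115% of all 22530 tested probes were called in either direction. None had an unadjusted p under 0.05 either, against 6.6% of all probes, and none differed by 2-fold, which 1.23% of all probes did upward and 0.985% downward. The log2 differences ran from -0.08 for BRCA1 to 0.25 for TIMP3, and their median size of 0.11 was next to 0.20 for all tested probes. Only the clones of GSTP1 did not overlap, 1 gene of 8, where 30.8% of all probes had groups that did not overlap.

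TET1-CDwt and empty vector lay on the same slide, and the 2 empty vector arrays also served as control in the previous comparison. None of the 8 genes was called (0.0% of all probes), none had an unadjusted p under 0.05 (2.5% of all probes), and none differed by 2-fold (0.351% upward and 0.564% downward). Without empty vector #1, CDH1 differed by 1.02, and without TET1-CDwt #5 by 1.33, both past 2-fold. Differences ran from -0.34 for VHL to 0.55 for CDH1, and GSTP1 alone did not overlap, against 27.7% of all probes.

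MBD-TET1-CDmut, compared with the same 2 empty vector arrays, also gave no call (0.0% of all probes), no unadjusted p under 0.05 (2.68%), and no 2-fold difference (0.36% upward and 0.413% downward). Differences ran from -0.22 for VHL to 0.88 for CDH1, which became 1.35 without empty vector #1. RASSF1 and CDH1 were higher and TIMP3 was lower without overlap, 3 genes of 8, against 34.7% of all probes.

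The 2 fusions differ in the catalytic point mutation and lay on the same slide. Between MBD-TET1-CDwt and MBD-TET1-CDmut none of the 8 genes was called (0.102% of all probes), none had an unadjusted p under 0.05 (6.84%), and none differed by 2-fold (1.29% upward and 1.09% downward). Differences ran from -0.74 for CDH1 to 0.37 for TIMP3. With the weakest detected signal in place of the undetected CDH1 value the CDH1 difference was -0.41, without MBD-TET1-CDwt #10 it was at most -1.26, and without MBD-TET1-CDwt #3 it was 0.44. GSTP1 and TIMP3 were higher without overlap, against 36.0% of all probes.

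The intervals set the size that these clones could have missed. Of the 32 comparisons (8 genes in 4 comparisons), 24 had a 95% interval that lay within 2-fold in both directions, and for 5 genes this held in every comparison. The 5 were GSTP1, RASSF1, DAPK1, VHL, and BRCA1. A rise of 5-fold, the threshold of the study's methods, lay above the interval in 30 of 32. The exceptions were CDH1 in TET1-CDwt, with an upper bound of 5.61-fold, and in MBD-TET1-CDmut, with 7.07-fold. 

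**Figure D3:**
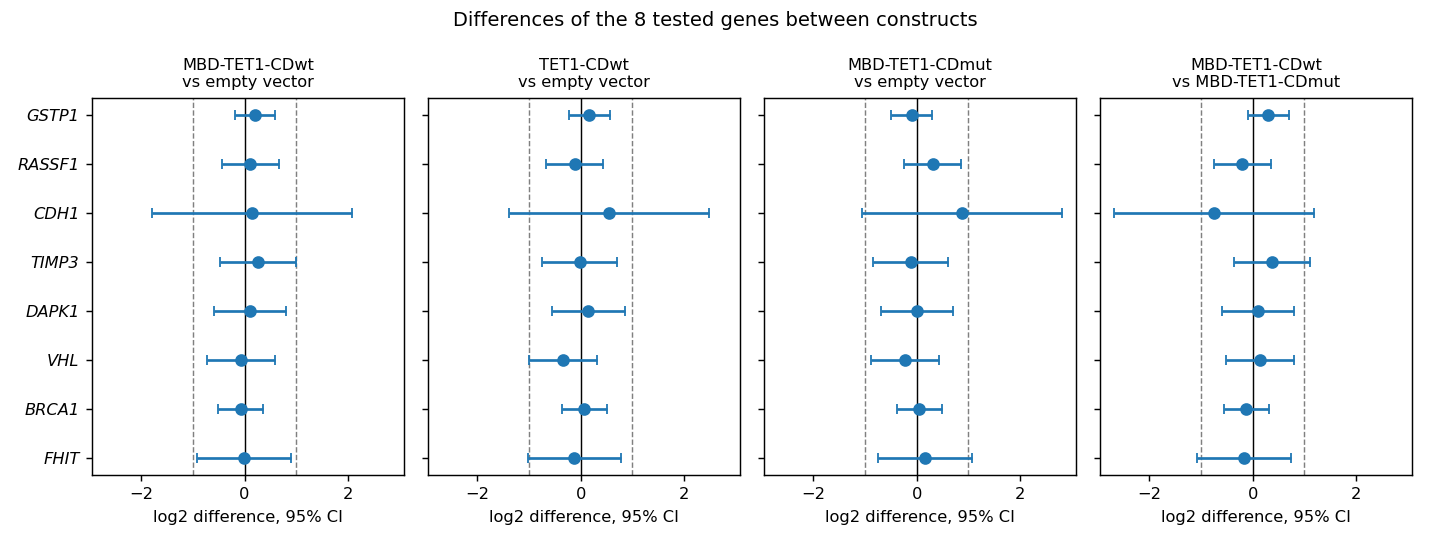
Log2 difference of group means with its 95% confidence interval from limma (x axis) for the 8 tested genes (y axis) in each of the 4 comparisons; dashed lines mark 2-fold. All 32 intervals include 0, and those of CDH1 are the widest.

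Genes that work with the 9 were examined in 10 lists of relatives and pathway partners, 94 genes on the array of which 85 were tested with 111 probes. None of the 111 probes was called in any of the 4 comparisons. At an unadjusted p under 0.05, the active fusion had 10 higher (9.01%) and 3 lower (2.70%) than empty vector, against 2.84% and 3.76% of all probes. TET1-CDwt had 5 higher (4.50%) and 3 lower (2.70%), against 0.652% and 1.85% of all probes. The inactive fusion had 3 higher (2.70%) and 2 lower (1.80%), against 0.861% and 1.82%. Between the fusions 6 were higher (5.41%) and 4 lower (3.60%), against 3.28% and 3.56%. No test of the lists was made.

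Glutathione transferases are the enzyme family of GSTP1, and 14 of 16 were tested. GSTT2 had the widest gap of any list gene, with log2 signals of -7.92 and -7.77 in empty vector, -4.70 and -6.81 in TET1-CDwt, -3.93 and -2.01 in MBD-TET1-CDwt, and -7.67 on both MBD-TET1-CDmut arrays. It was detected on both MBD-TET1-CDwt arrays, on 1 of TET1-CDwt, and on none of the other 2 groups. Its mean in the active fusion exceeded empty vector by at least 7.68-fold and the inactive fusion by at least 5.88-fold. GSTT2 was tested only because the active fusion detected it on both arrays. The fitted differences, which use the undetected signals, did not pass the test (limma adjusted p = 0.183 and 0.195). GSTT2 has a near-identical copy, GSTT2B, whose transcripts this probe may also bind. GSTM4 differed from empty vector by 1.30 ± 0.36 in MBD-TET1-CDwt (limma adjusted p = 0.557). The 18 tested probes of the family had a median difference of -0.03 and a median size of difference of 0.19.

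In the cadherin list, 11 genes were tested. SNAI1 and SNAI2, transcription factors that repress CDH1, differed from empty vector by 0.80 ± 0.31 and 0.60 ± 0.24 in MBD-TET1-CDwt (limma adjusted p = 0.743 and 0.753). They differed from it by 0.90 and 0.48 in TET1-CDwt, and by 0.30 and -0.42 in MBD-TET1-CDmut. SNAI2 signals were 0.67 and 0.94 in MBD-TET1-CDwt against -0.40 and -0.03 in MBD-TET1-CDmut, without overlap. Of the metalloproteinase inhibitors, TIMP1 differed by -0.89 ± 0.32 from empty vector in the active fusion (limma adjusted p = 0.721). TIMP4 was detected on both empty vector arrays (-4.74 and -5.07) and on neither array of the active fusion (-5.51 and -6.31). Its level there is only a bound, at least 1.52-fold lower. The fitted difference, which uses the undetected signals, had a limma adjusted p of 0.812. TIMP2, named after its values were seen, lay above both empty vector arrays (1.12 and 1.41) on all 6 other arrays, from 1.67 to 2.29, and differed by 0.85 ± 0.22 in MBD-TET1-CDwt (limma adjusted p = 0.528).

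Among BRCA1 partners, FANCF, a subunit of the Fanconi anemia core complex, had 2 probes. Its main probe gave -3.97 and -3.29 in empty vector, -2.52 and -2.72 in TET1-CDwt, -3.19 and -1.60 in MBD-TET1-CDwt, and -2.17 and -1.68 in MBD-TET1-CDmut. All 6 construct clones lay above both empty vector clones, though MBD-TET1-CDwt #3 by little, and the difference of MBD-TET1-CDwt was 1.23 ± 0.51 (limma adjusted p = 0.756). The other probe, looked at after the first and detected on 1 empty vector array, differed from empty vector by 2.25 ± 0.43 for the active fusion, 1.85 for TET1-CDwt, and 2.31 for the inactive fusion (limma adjusted p = 0.313, 1.00, and 1.00). Between the fusions it differed by -0.06 ± 0.43. ABRAXAS1, of the BRCA1-A complex, differed by -0.52 ± 0.61.

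VHL partners and hypoxia genes gave 10 tested genes. ELOB (elongin B), a subunit of the VHL ligase, differed by 0.68 ± 0.22 (limma adjusted p = 0.671), and VEGFA, a target of hypoxia-inducible factors, by -0.55 ± 0.36 in MBD-TET1-CDwt. The RASSF and MST list had RASSF2 at -0.48 ± 0.37 and STK3 (MST2) at 0.44 ± 0.21 as its widest differences. The alkylation repair list, which holds other enzymes that repair alkylated DNA, was the tightest, with ALKBH2 at -0.08 and ALKBH3 at -0.01. DAPK2 (0.29) and DAPK3 (0.10), kinases related to DAPK1, and HINT3 (-0.35) and APTX (0.21), which share the histidine triad fold of FHIT, likewise stayed within 2-fold of empty vector.

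Other genes often methylated in tumors were tested for 15 of 17. SYK, a tyrosine kinase, gave log2 signals of -0.56 and -0.96 in empty vector, -1.95 and -1.82 in TET1-CDwt, -2.20 and -2.93 in MBD-TET1-CDwt, and -1.73 and -1.45 in MBD-TET1-CDmut. All 6 construct clones lay below both empty vector clones, and the difference of the active fusion was -1.81 ± 0.29 (limma adjusted p = 0.182). HIC1, a transcriptional repressor, differed by 1.63 ± 0.85 (limma adjusted p = 0.815), with -4.81 and -2.13 in MBD-TET1-CDwt against -5.83 and -4.36 in empty vector. It also differed from empty vector by 1.18 in MBD-TET1-CDmut (-3.67 and -4.15) and by 0.20 in TET1-CDwt. Between the fusions HIC1 differed by 0.45 ± 0.85. HIC1 was detected on 1 of both empty vector arrays, and the active fusion's clones lay farther apart than the group means.

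**Figure D4:**
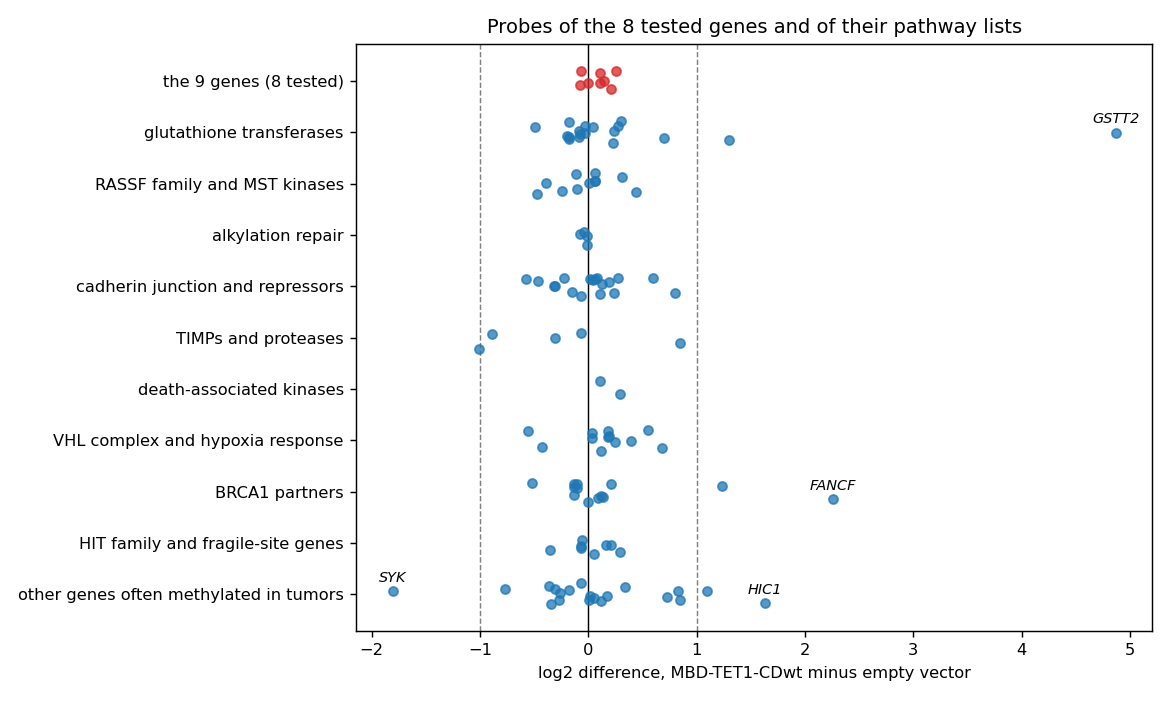
Log2 difference between MBD-TET1-CDwt and empty vector (x axis) for each tested probe of the 9 genes (red, 8 tested) and of the 10 pathway lists (blue, one list per row); dashed lines mark 2-fold and genes beyond 1.5 in size are named. The 8 tested genes lie between -0.08 and 0.25, and GSTT2, which empty vector did not detect, is drawn at its fitted difference although only the bound in the text (at least 7.68-fold) was measured.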

How the data were processed

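RNA of 8 stable HEK293T clones was hybridized by the authors to Agilent 4x44K v2 arrays. The deposited files give intensity on a linear scale, background-subtracted by Agilent Feature Extraction (9.5.1 in the submitters' processing notes, 10.7.3.1 in the file headers) and not scaled between arrays. Control spots and outlier-flagged spots were left out, log2 intensity minus the array's 75th percentile was taken as the mean of each probe's spots, and no spot was saturated.

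A model of 4 group means (4 residual degrees of freedom) was fitted across the 8 arrays with limma 3.58.1 (R 4.3.3). The 22530 probes that both arrays of some group detected entered it, p-values were adjusted over all of them (Benjamini-Hochberg), and probes of 2-fold size were counted with signals of undetected groups at the weakest detected signal of the array. The fit was tested on simulated data, where it called 119 of 200 changed probes and 7 unchanged ones. Of the 150 changed by at least 5-fold it called 113. Most of the remaining changes, of 2-fold, were not called. Python 3.11.15, numpy 2.4.6, pandas 2.3.3, and matplotlib 3.10.9 made the tables and figures. Names, which 25422 probes received, and promoter windows came from RefSeq (GRCh38.p14), matched by transcript and symbol.

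The genes and lists were chosen with earlier results of these data known. Named were all 9 genes, SOX17, every list gene called, and the 2 genes per list with the largest difference in MBD-TET1-CDwt. Genes most like the 2 with the widest group means were also sought. TET1 and MBD2 probes check nothing here, since their positions relative to the cloned parts are not given in the sources used here, and some items are not reported. Alternatives were other background corrections, scalings, filters, and fits, and leaving out each clone. The normexp alternative used median signals, with at most 12 spots per array set aside whose local background was over 10 times the array's median.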

Additional observations from a re-analysis of the deposited data

How the results depend on the processing

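With 2 arrays per group, precision is limited by the number of clones, and signals near background by brightness. The count of called genes was 0 of the tested genes in every comparison in all 44 counts recomputed under alternatives, with a smallest adjusted p of 0.234. The count of 2-fold differences was 0 under each other scaling, background correction, and floor, and ranged from 0 to 1 in each comparison when 1 clone was left out, the 1 being CDH1. The count of detected genes in empty vector was 8 under both other rules.

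Of 352 values of single genes under alternatives, 34 had the other sign, and none was called. Outside the fits without 1 clone these were 7 small values. FHIT in MBD-TET1-CDwt against empty vector was 0.0292 with normexp, 0.0217 with quantile normalization, and 0.0316 with median scaling. In TET1-CDwt against empty vector, normexp gave -0.12 for CDH1 and -0.12 for DAPK1, and median scaling gave 0.0737 for TIMP3. VHL between the fusions was -0.0083 with quantile normalization. The cause was not tested. When 1 clone was left out, 21 of 32 differences took both signs, with these lowest and highest values. In MBD-TET1-CDwt against empty vector they were RASSF1 -0.15 to 0.37, CDH1 -1.04 to 1.32, DAPK1 -0.0746 to 0.28, VHL -0.47 to 0.32, BRCA1 -0.23 to 0.0765, and FHIT -0.40 to 0.39. In TET1-CDwt against empty vector they were RASSF1 -0.27 to 0.0425, CDH1 -0.23 to 1.33, TIMP3 -0.45 to 0.41, DAPK1 -0.20 to 0.50, VHL -0.73 to 0.0545, BRCA1 -0.0260 to 0.18, and FHIT -0.56 to 0.32. In MBD-TET1-CDmut against empty vector they were DAPK1 -0.24 to 0.25, VHL -0.61 to 0.17, and FHIT -0.10 to 0.43. Between the fusions they were RASSF1 -0.46 to 0.0660, CDH1 -1.92 to 0.44, DAPK1 -0.15 to 0.34, BRCA1 -0.28 to 0.0273, and FHIT -0.57 to 0.23.  The CDH1 lows of -1.04 and -1.92 rest on MBD-TET1-CDwt #3, which did not detect CDH1. At the weakest detected signal of that array, an alternative chosen after seeing the data, they are -0.37 and -1.26.

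No paired analysis was possible because the clones were picked as separate colonies, and a clone number shared by different groups does not pair them. A slide block could not be fitted, since each group lies on 1 slide, and the mean over the probes of a gene was not run, since each of the 9 genes has 1 probe. On 3 arrays the normexp fit was run without spots of very high local background, a choice made after seeing the data.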
